A study of Mus musculus with 4 samples.

Results

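Type B and other pendrin-positive intercalated cells were described in single-cell RNA-seq of the mouse kidney. The cells were chosen by raw UMI counts (a UMI is a tag that marks 1 captured mRNA molecule) from 4 libraries: a barcode had at least 2 UMIs of Atp6v1g3 and Atp6v0d2 together, at least 1 UMI of Slc26a4, none of Ptprc and at most 2 of C1qa, C1qb and C1qc together. Of 37041 barcodes, 31041 had at least 500 UMIs, at least 200 genes and at most 50% of UMIs on mitochondrially encoded genes, and 80 of these passed the gate. They came from 2 TrnE-mutant mice, which carry mutant mitochondrial DNA in the gene of the glutamate transfer RNA, at mutation loads of 79% (mutant 1, 31 cells) and 76% (mutant 2, 22 cells), and from 2 wild-type C57BL/6J mice (wild type 1, 14 cells, and wild type 2, 13 cells). Each library was the kidney tissue of 1 mouse, digested to single cells, with viable cells collected by flow sorting; age and sex are not used here. The mutants were processed with Cell Ranger 7.0.0 and the wild types with 7.1.0, so software version and genotype cannot be told apart.

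Intercalated cells are the acid-base cells of the connecting tubule and collecting duct, and all of them carry a vacuolar proton pump. Type A cells secrete acid through an apical pump and export bicarbonate by the basolateral exchanger Slc4a1, whereas type B cells secrete bicarbonate into the urine by the apical chloride-bicarbonate exchanger pendrin, encoded by Slc26a4, and take up chloride; cells with pendrin and an apical pump are known as non-A, non-B cells. The forkhead factor Foxi1 is needed for the whole lineage, and the mitochondria-rich cytoplasm of these cells supplies the pump with ATP.

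Slc26a4 lies at chr12:31519827-31559969 on the minus strand of GRCm38, Insrr (a receptor tyrosine kinase that senses alkaline pH) at chr3:87796951-87816101 on the plus strand, and Hmx2 (a homeobox factor) at chr7:131548773-131558014 on the plus strand. The bases before the RefSeq start (GRCm38.p6) of the gene that defines the gate and of Atp6v1b1, the intercalated B1 subunit of the proton pump, are shown because Foxi1 is known to act on both genes. Capitals mark a forkhead motif, TGTTTAC or its reverse complement GTAAACA, searched on both strands of the 250 bases before each start, and found in 3.17% of the 32851 windows of that length in the RefSeq table. The Slc26a4 window (chr12:31559985-31560234, minus strand) held no match, and the Atp6v1b1 window (printed for chr6:83742767-83742989, plus strand, up to the annotated exon) held 1 match that begins 98 bases before the start.
Slc26a4: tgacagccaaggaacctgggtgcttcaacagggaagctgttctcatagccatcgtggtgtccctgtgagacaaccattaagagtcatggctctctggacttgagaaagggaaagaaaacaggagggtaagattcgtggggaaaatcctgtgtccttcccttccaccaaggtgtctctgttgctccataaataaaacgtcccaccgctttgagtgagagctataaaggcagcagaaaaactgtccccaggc
Atp6v1b1: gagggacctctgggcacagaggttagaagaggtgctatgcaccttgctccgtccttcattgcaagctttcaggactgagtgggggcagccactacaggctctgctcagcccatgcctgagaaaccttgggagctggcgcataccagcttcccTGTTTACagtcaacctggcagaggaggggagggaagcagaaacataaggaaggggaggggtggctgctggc

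The gated libraries held 312750, 133265, 142816 and 181914 UMIs in mutant 1, mutant 2, wild type 1 and wild type 2, with medians of 7205, 5224, 11519 and 10705 UMIs per cell. None of the 80 barcodes was called a doublet by Scrublet, which called 613 of all kept barcodes, and no gated barcode sequence occurred in another library. Slc26a4 was at exactly 1 UMI in 14 cells, 9 of them in mutant 2, and at 10 or more in 34 cells. Every gated cell carried Atp6v1g3, and the lowest pump sum was 3 UMIs. Just outside the gate, 2 kept barcodes had a Slc26a4 UMI and a pump sum of 1, and 76 had a pump sum of 0, of which 2 carried another type B marker and 0 carried Foxi1. A further 13 barcodes failed on Ptprc alone and 12 on the C1q genes, 10 of the latter in mutant 1.

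The label was checked against Insrr, Hmx2 and Slc4a9 (a basolateral bicarbonate transporter of type B cells), which the gate did not use. At least 1 of the 3 was present in 74 of 80 cells and all 3 in 42. The 6 cells with none comprised 5 of mutant 2 and 1 of mutant 1. Of the 14 cells with exactly 1 Slc26a4 UMI, 10 carried at least 1 of the 3, and in mutant 2 it was 5 of 9. In the Slc26a4-negative intercalated gate, the same rule with 0 Slc26a4 UMIs, 133 of 350 cells (38%, median 3659 UMIs) carried at least 1. Slc4a9 and Hmx2 were each detected in 64 gated cells (80.0%) and Insrr in 51 (63.8%), against 0.171%, 0.171% and 0.0466% of 6432 proximal tubule barcodes. Slc26a4 itself was detected in 1.07% of proximal tubule barcodes (median 5206 UMIs) and 0.316% of T cell barcodes (median 5350 UMIs). The type A exchanger Slc4a1 was in 0 of 80 cells, which allows a share of up to 3.75% of cells with a UMI (3 counts, counting error only), against 31 of 350 cells of the Slc26a4-negative intercalated gate. Of the other type A markers, the water channel gene Aqp6 had UMIs in 6 cells, the receptor tyrosine kinase Kit in 3, the transcription factor Dmrt2 in 2 and Adgrf5 in 12. Spink8, in the same list, had UMIs in 58 of 80 cells. Most members carried at least 1 type B marker beyond the gene that selected them, with the fewest markers per cell in mutant 2.

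**Figure D1:**
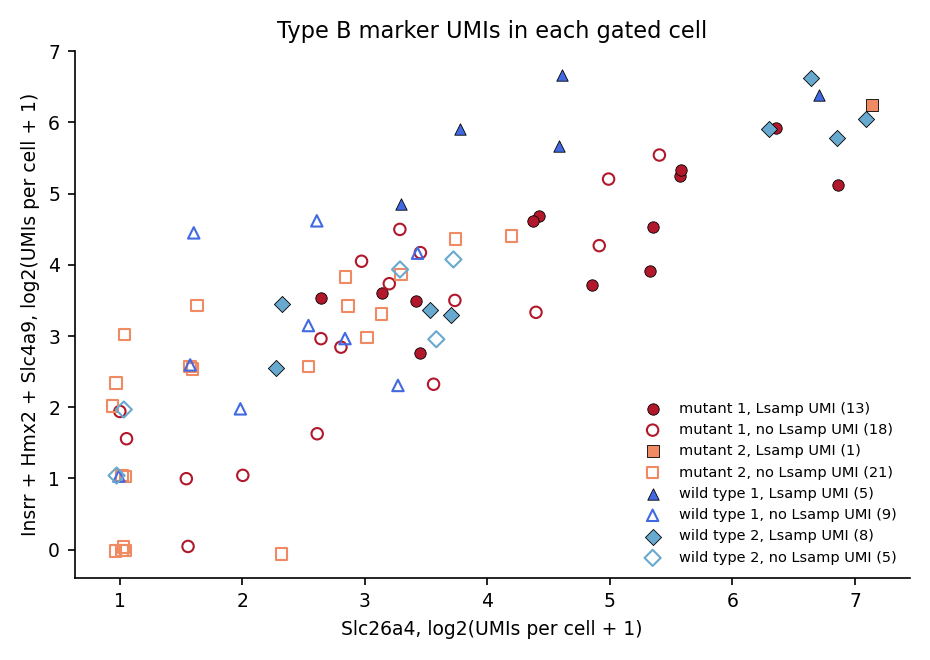
Each point is 1 gated cell, with Slc26a4 UMIs on the x axis and the summed UMIs of Insrr, Hmx2 and Slc4a9 on the y axis, both as log2(UMIs + 1) with a small random offset; filled points have an Lsamp UMI and open points have none. Of the 80 cells, 6 lie at 0 on the y axis, and the 21 open squares of mutant 2 lie mostly at low Slc26a4.

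Lsamp, an immunoglobulin-family cell adhesion gene spanning chr16:39984361-42181679, was detected in a part of the gated cells. The gene is very long, and whether its UMIs come from introns was not tested. It had a UMI in 27 of 80 cells: 13 of 31 in mutant 1, 1 of 22 in mutant 2, 5 of 14 in wild type 1 and 8 of 13 in wild type 2. The cells with Lsamp were deeper, with a median of 13958 UMIs against 4941 for those without, so the 37 cells with at least 8000 UMIs were compared as a description; Lsamp was singled out after its values were seen and no test was run. Among these deep cells, 20 had Lsamp and 17 had none (medians 17820 and 11872 UMIs). Slc26a4 stood at 2816 CPM (UMIs of the gene per 1000000 UMIs) in the summed Lsamp cells against 746.1 CPM in the others, Insrr at 372 against 97.5, and Slc4a9 at 1370 against 444. Slc26a4 and Insrr were higher in the Lsamp cells of all 4 libraries, whereas Hmx2 stood at 561 and 614 CPM and Foxi1 at 473 and 736. The pump subunit Atp6v1g3 went the other way, at 5445 CPM with Lsamp and 10406 without, except in wild type 2 (5982 and 4609 CPM, the latter from 2 cells). Mutant 2 had 1 Lsamp cell among its 6 deep cells, against 8 of 13, 4 of 9 and 7 of 9 in the other libraries. A cell counted from 1 Lsamp UMI on. The deep Lsamp cells of wild type 2 held 159, 125, 112, 277, 1, 2 and 1 UMIs of it. Those of wild type 1 held 134, 7, 5 and 48, and those of mutant 1 held 154, 66, 185, 96, 42, 21, 20 and 1. The counts of Lsamp cells therefore depend on this cut, and no higher cut was compared.

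The share of cells in the gate was compared first between genotypes. Gated cells made up 0.317% of kept barcodes in mutant 1 (exact Clopper-Pearson 95% interval 0.216 to 0.450%), 0.243% in mutant 2 (0.152 to 0.367%), 0.243% in wild type 1 (0.133 to 0.407%) and 0.202% in wild type 2 (0.108 to 0.346%). The intervals cover counting error only and all overlap. The mean was 0.280% ± 0.053 (SD, n = 2) in mutants and 0.222% ± 0.029 (SD, n = 2) in wild types, and an exact two-sided permutation test over libraries gave p = 0.667, where 2 against 2 cannot go below 0.33. A C1q UMI, a sign of macrophage RNA, was present in 15 of 31 and 14 of 22 mutant cells against 0 of 14 and 1 of 13 wild-type cells, and counting only cells with none turned the difference round, from 0.0574 to -0.0888 percentage points (exact permutation p = 0.33). As a share of kept barcodes without Ptprc, the leukocyte marker, gated cells were 0.643% and 0.798% in mutants and 0.462% and 0.336% in wild types, a difference of 0.322 points with no overlap (exact permutation p = 0.33). At a mitochondrial share of at most 25% the mutants (0.289% and 0.239%) also lay above the wild types (0.235% and 0.147%; exact permutation p = 0.33).

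Within the intercalated gate, which holds cells with and without Slc26a4, the pendrin-positive cells were 31 of 190 (16.3%) in mutant 1, 22 of 112 (19.6%) in mutant 2, 14 of 85 (16.5%) in wild type 1 and 13 of 43 (30.2%) in wild type 2. Only wild type 2 stood apart, with an interval of 17.2 to 46.1% that still overlapped the others. The means were 17.98% ± 2.35 and 23.35% ± 9.73 (SD, n = 2 each; exact permutation p = 0.667). Without wild type 2 the difference of mutants over wild types changed from -5.37 to 1.51 percentage points. After each barcode was thinned to 1000 UMIs the means were 12.8% and 18.3%.

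To see what else marked these cells, UMIs were summed per library over the 80 gated and over the 350 Slc26a4-negative intercalated cells and compared with the library as a block (edgeR's quasi-likelihood test, Benjamini-Hochberg threshold 0.05, gate genes left out). Of 4006 genes tested, 160 (3.99%) were higher and 124 (3.1%) lower in the gated cells. The negative cells were shallower, with a median of 3659 UMIs, and only 53 of them carried Slc4a1 or Aqp6. Gene values in this comparison are CPM on TMM-scaled library sizes, and values of whole marker lists and the floor for Nrxn3 are CPM of unscaled UMI totals. Without mutant 1 the test called 152 genes in place of 284.

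The 3 type B markers were all higher in the gated cells in all 4 libraries. These markers were proposed with results of these data in view and are no independent evidence of their own direction. Insrr stood at 324, 159, 294 and 322 CPM in the gated cells of mutant 1, mutant 2, wild type 1 and wild type 2, against 10.6, 13.5, 14.3 and 5.43 CPM in the negative cells. The groups did not overlap, and the log2 fold was 4.50 ± 0.32 (SE, edgeR adjusted p = 0.000169). Slc4a9 differed by 2.94 ± 0.35 (edgeR adjusted p = 0.00140) and Hmx2 by 2.75 ± 0.40 (edgeR adjusted p = 0.00344). The Slc26a4-negative cells were not free of these markers: Hmx2 was detected in 80 of 350 and Slc4a9 in 75, and of the 53 that carried Slc4a1 or Aqp6, 1 had Hmx2, 4 had Insrr and 26 had Slc4a9.

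Of the type A list, Aqp6 and the adhesion receptor Adgrf5 were lower in the gated cells, and Spink8, a serine protease inhibitor of the Kazal type placed in that list, was higher. Aqp6 stood at 33.4, 7.56, 0 and 33.8 CPM in the gated cells against 304, 121, 74.3 and 380 in the negative cells (log2 fold -3.49 ± 0.32, edgeR adjusted p = 0.000598). Adgrf5 fell by 2.31 ± 0.47 on the log2 scale (edgeR adjusted p = 0.0173). Spink8 stood at 1009, 726, 1204 and 463 CPM against 319, 308, 134 and 59.7 (log2 fold 2.14 ± 0.31, edgeR adjusted p = 0.00367), so here it went with the pendrin-positive cells.

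Of 9 tested genes of the intercalated cell marker list, 8 were higher in the gated cells and Rhcg, an ammonia channel, did not pass (log2 fold 1.10 ± 0.40, edgeR adjusted p = 0.161). The median log2 fold of the list was 1.17, beside -0.00 for all 4006 genes. Foxi1 stood at 387, 930, 700 and 705 CPM against 211, 454, 334 and 206 (log2 fold 1.17 ± 0.18, edgeR adjusted p = 0.00457). Tmem213, a small membrane protein gene of these cells, differed by 1.64 ± 0.16, and the pump subunit Atp6v0a4 by 1.54 ± 0.16 (edgeR adjusted p = 0.000856 and 0.00111). Atp6v1c2 (1.18), the barttin gene Bsnd (1.41), Atp6v1b1 (0.79) and the transcription factor Tfcp2l1 (0.61) also passed. Across the proton pump list 10 of 17 tested subunits and accessory proteins were higher and none lower, beside 3.99% and 3.1% of all genes. Foxi1 was detected in only 158 of the 350 negative cells. The negative gate also held RNA of other tubule segments, with thick ascending limb markers at 879 to 10385 CPM against 273 to 690 CPM in the gated cells, where Umod gave nearly all of them and Cldn16 was at 0. Against only the 53 cells with Slc4a1 or Aqp6, the log2 folds of Atp6v1b1 (-0.09), Rhcg (-0.48) and Tfcp2l1 (-0.11) changed sign. The median of the intercalated list was 0.49 there. The median of the pump list was 0.45, with 12 of 16 above 0, beside 0.90 and 15 of 17 against all negative cells.

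Of the 12 largest differences that passed, Lsamp had the largest log2 fold, at 2839, 1240, 1365 and 3824 CPM in the gated cells against 4.26, 5.77, 11.4 and 0 CPM (log2 fold 8.47 ± 0.40, edgeR adjusted p = 1.06e-05). All 164 Lsamp UMIs of mutant 2 came from 1 cell, and the largest single cell gave 21.8%, 68.7% and 40.9% of the UMIs in mutant 1, wild type 1 and wild type 2. Rp1, a microtubule-associated gene known from photoreceptors, stood at 127, 113, 217 and 276 CPM against 9.58, 9.62, 8.57 and 5.43 (log2 fold 4.09 ± 0.33). Tafa1 (a secreted neurokine-like protein), Tmem163 (a vesicular zinc transporter), Thsd7a (a thrombospondin-domain membrane protein), Rtl4 (a retrotransposon-derived gene) and Syt7 (a calcium sensor of exocytosis) followed, at log2 folds of 4.06, 3.78, 3.73, 3.37 and 3.30. Ank, a pyrophosphate and ATP exporter, was higher by 3.24 and Heatr1, a ribosome biogenesis gene, by 3.03. In mutant 2, 1 cell held all 8 Thsd7a UMIs and 95.2% of those of Rtl4, so these genes rested on few cells there.

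Of the genes with a role in acid-base transport, Car15, a membrane-bound carbonic anhydrase, was among the largest: 5274, 4308, 2373 and 1630 CPM in the gated cells against 470, 181, 383 and 483 (log2 fold 3.12 ± 0.39, edgeR adjusted p = 0.00173). It was detected in 65 of 80 cells. Jag1, the Notch ligand by which intercalated cells signal to their neighbours, stood at 247, 234, 287 and 124 CPM against 25.5, 9.62, 42.9 and 27.1 (log2 fold 3.21 ± 0.34, edgeR adjusted p = 0.00111). The following members of the fixed lists passed and are named after their values were seen. Oxgr1, the receptor for alpha-ketoglutarate, was higher by 1.58 ± 0.23 on the log2 scale and detected in 43 of 80 gated against 46 of 350 negative cells, but also in 24 of the 53 negative cells with Slc4a1 or Aqp6. The vasopressin receptor Avpr1a (2.07 ± 0.37), the secretin receptor Sctr (2.85 ± 0.64), the carbonic anhydrase Car12 (2.62 ± 0.33), the water and glycerol channel Aqp3 (2.26 ± 0.41) and the claudin Cldn8 (1.39 ± 0.32) were higher too, and the kinase Sgk1 was lower (-1.60 ± 0.39).

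Of the genes lower in the gated cells, Nrxn3 had 0 UMIs in the gated cells and 302 in the negative cells, which with a floor of 3 counts over the 770745 gated UMIs is at least 39.8-fold lower. Slc12a1, the salt transporter of the thick ascending limb, stood at 3.34, 0, 0 and 5.64 CPM against 309, 40.4, 1203 and 2910. Egf, of the same segment, had 0, 0, 3 and 1 gated UMIs. The glucose transporter Slc5a2 (-5.33), the scaffold Pdzk1 (-3.58) and Acsm2 (-3.69) belong to the proximal tubule, and Ass1 (-3.73), of arginine synthesis, is high there. Plpp3 (-4.72), Ppp1r1a (-4.04), Spp2 (-3.80), Sostdc1 (-3.72) and Cryab (-3.58) completed the 12. Proximal tubule markers as a list stood at 1862 to 5171 CPM in the negative cells and at 90.0 to 5206 CPM in the gated cells, where 1 cell of wild type 2 held 902 such UMIs, 727 of them Kap. The median log2 fold of the proximal tubule list was -3.07 (5 genes tested) against all negative cells. It was 0.15 (2 tested) against the negative cells with Slc4a1 or Aqp6 and -3.28 (4 tested) against those with an Atp6v1g3 UMI. For the thick ascending limb list these values were -7.27 (3 tested), 3.72 (1 tested) and 0.68 (1 tested). The part of RNA from other cells in these lower values was not tested.

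**Figure D2:**
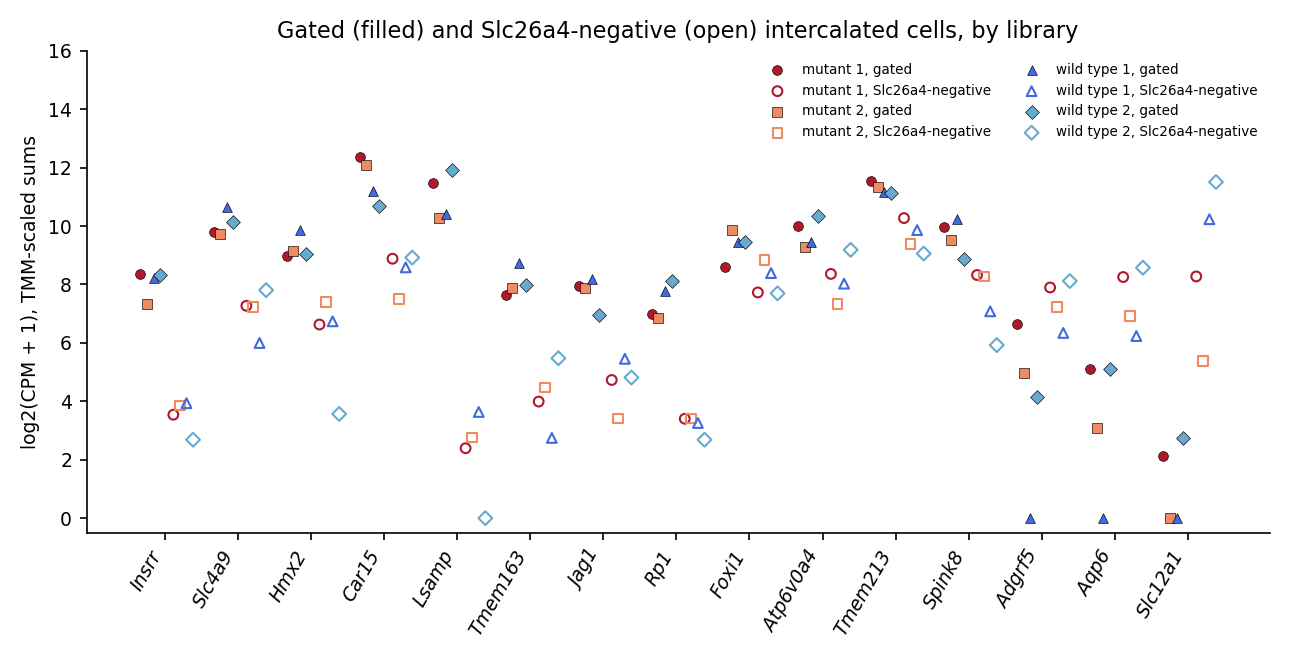
Expression of 15 genes in gated (filled) and Slc26a4-negative (open) intercalated cells of each library, as log2(CPM + 1) of UMIs summed per library on TMM-scaled sizes. The filled points lie above the open ones of the same library for Insrr through Spink8 and below them for Adgrf5, Aqp6 and Slc12a1.

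Mitochondrially encoded mRNAs were higher in the gated than in the negative cells: 11 of 13 passed, with a list median of 0.65 on the log2 scale. mt-Co1, a subunit of cytochrome oxidase, differed by 0.42 ± 0.10 (edgeR adjusted p = 0.0351) and mt-Nd3, a complex I subunit, by 0.85 ± 0.12 (edgeR adjusted p = 0.00284). None of 37 nuclear complex I genes and none of 38 genes of complexes II to V passed, with list medians of -0.05 and 0.02. Among all 4006 genes 3.99% were called higher and 3.1% lower. At a simulated 2-fold change the test between gates recovered 44.5% of changed genes, so the lack of calls cannot show that nuclear subunits were unchanged. The 2 mitochondrially encoded genes that did not pass were mt-Atp8 and mt-Nd6.

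Between genotypes, the mitochondrially encoded share of UMIs in the gated cells was 11.2% in mutant 1, 9.93% in mutant 2, 13.9% in wild type 1 and 16.7% in wild type 2. Both mutants were below both wild types, at means of 10.6% ± 0.9 and 15.3% ± 2.0 (SD, n = 2 each), with an exact two-sided permutation p of 0.33, which is the floor for 2 against 2. Among cells with no C1q UMI the shares were 14.97%, 9.03%, 13.9% and 17.2%, so that mutant 1 lay above wild type 1 (exact permutation p = 0.667). The medians per cell were 10.6%, 2.77%, 15.1% and 15.5%, and single cells ranged from 0.113% to 48.7%. The gate requires a share of at most 50%, and a further 17 barcodes, 11, 4, 2 and 0 in the 4 libraries, met every other condition at a share between 50 and 80%; 16 of these 17 carried a type B marker.

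**Figure D3:**
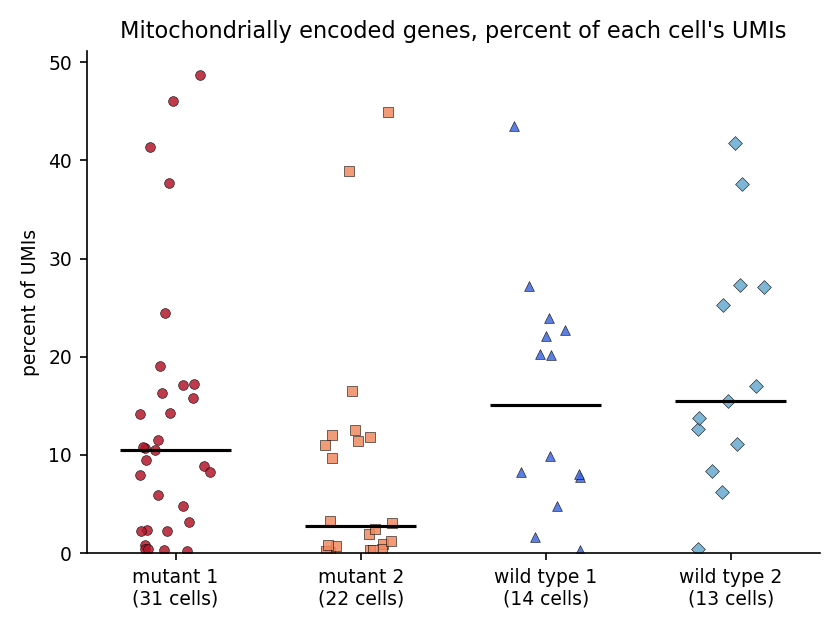
Percent of UMIs on mitochondrially encoded genes in each gated cell, by library, with the median as a bar. Mutant medians were 10.6% and 2.77%, wild-type medians 15.1% and 15.5%, and cells of every library spread from below 1% to above 40%.

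Mutant and wild-type gated cells were then compared gene by gene on the UMIs summed per library (edgeR's quasi-likelihood test, Benjamini-Hochberg threshold 0.05). Of 2786 genes tested, 5 (0.179%) were lower in mutants and 0% were higher; 209 genes had an unadjusted p under 0.05, and DESeq2 also called 5. Both mutants lay below both wild types in 21.5% of all genes and above them in 20.2%. Of the 5 genes, Egr1, Atf3, Jun and Fosb are immediate early genes, which cells switch on within minutes of a stimulus or of handling. Hspa1a, an inducible chaperone gene, was placed in the same list. All 5 were carried by a few cells. Leaving out any 1 of the 4 libraries moved the count to between 37 and 73, from 73 without mutant 1 to 37 without wild type 2.

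Jun, a subunit of the AP-1 transcription factor, stood at 300, 64.4, 2060 and 2419 CPM in mutant 1, mutant 2, wild type 1 and wild type 2 (log2 fold -3.52 ± 0.54, edgeR adjusted p = 0.0333). Atf3, a stress-induced factor, stood at 70.9, 14.3, 723 and 1133 CPM (-4.23 ± 0.54, edgeR adjusted p = 0.00982). Egr1, a zinc finger factor, stood at 61.2, 28.6, 505 and 863 CPM (-3.81 ± 0.48, edgeR adjusted p = 0.00982). The values of the mutants and wild types did not overlap for any of these genes. Fosb, the partner of Jun, stood at 29.0, 0, 321 and 1027 CPM (-5.13 ± 0.79, edgeR adjusted p = 0.0333), and Hspa1a, an inducible chaperone whose reads may be shared with the near-identical Hspa1b, at 51.5, 100.2, 934 and 722 CPM (-3.52 ± 0.43, edgeR adjusted p = 0.00982).

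Of the list's 24 genes 16 were tested, all with a log2 fold below 0 (median -3.23), and in 14 both mutants were below both wild types. Most of these UMIs came from 6 cells. In wild type 1, a single cell held 1408 of the library's 1582 UMIs on the 24 genes of the immediate early list (89.0%). In wild type 2, 3 cells held 708, 653 and 1026 of 2456. In mutant 1 a single cell held 64.4% of 761 UMIs, and mutant 2 had 116 UMIs in all. The cells with over 0.5% of UMIs on the list numbered 1, 0, 2 and 3 in mutant 1, mutant 2, wild type 1 and wild type 2, and all 6 carried Lsamp. Lsamp was present in 27 of all 80 cells and in 20 of the 37 with at least 8000 UMIs. Its link with the list beyond depth was not tested. The 6 cells held 40936 UMIs (mutant 1), 18022 and 5798 (wild type 1) and 39325, 32141 and 23331 (wild type 2), and the cell at 5798 had 1 Lsamp UMI. With those cells set aside, which were picked on this outcome and are therefore described without a test, the list stood at 997, 870, 958 and 792 CPM, and Atf3 had 3, 2, 0 and 0 UMIs left. The median cell had 0.0854%, 0.0818%, 0.104% and 0.0978% of its UMIs on these genes. With each cell thinned to 1000 UMIs before summing, so that deep cells weigh no more than shallow ones, 288 genes were testable and Jun and Fos were called. No gene passed (0 genes at the threshold in edgeR, 113 at unadjusted p under 0.05) when the 27 cells with 10 or more UMIs of another cell type's markers were left out, and likewise at a mitochondrial share of at most 25% (0 genes, 187 at unadjusted p under 0.05). Those fits held 19, 18, 8 and 8 cells and 27, 20, 12 and 8 cells of the libraries in the same order. The plan had set at least 10 cells in every library for a test, so no conclusion is drawn from the lack of calls. The list's median log2 fold was still -3.56 and -3.43 in those fits, and ran from -5.02 without mutant 1 to -2.43 without mutant 2.

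**Figure D4:**
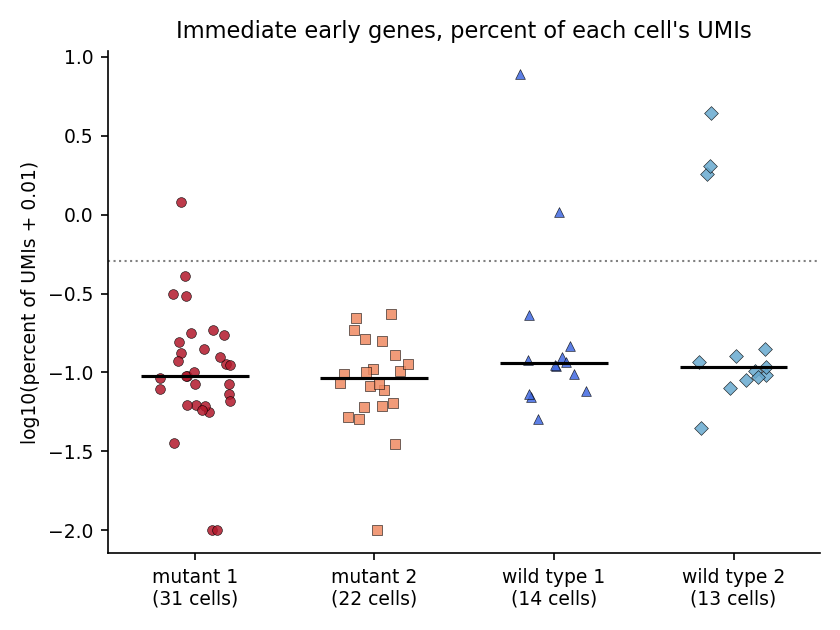
Percent of each gated cell's UMIs on the immediate early gene list, as log10(percent + 0.01), by library, with the median as a bar and a dotted line at 0.5%. The medians lie close together, and 1, 0, 2 and 3 cells lie above the line.

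In other cells of the same libraries the wild types did not both stand above the mutants. The immediate early list stood at 2925, 2869, 1056 and 1173 CPM in the Slc26a4-negative intercalated cells, at 5193, 1909, 1520 and 8819 CPM in 40 principal cells, at 1461, 615, 360 and 416 CPM in proximal tubule barcodes and at 3062, 2018, 2356 and 2951 CPM in T cell barcodes of mutant 1, mutant 2, wild type 1 and wild type 2. The test of the difference in genotype effect between the 2 intercalated gates called 11 of 5292 genes (0.208%), 9 of them lower, 8 of which belong to this list.

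Type B and intercalated markers were compared next. Slc26a4, which chose the cells and was not tested, stood at 2142, 1703, 1498 and 2650 CPM (raw library sums) in mutant 1, mutant 2, wild type 1 and wild type 2, with the genotypes overlapping. None of the 3 other type B markers, all with log2 folds below 0, and none of the 9 intercalated markers tested passed; at a simulated 2-fold change the test recovered 4.5% of changed genes, so changes of that size would mostly be missed. For Slc4a9, Hmx2, Tfcp2l1 and Bsnd both mutants lay below both wild types, and for Tmem213 both lay above. That is 2 of 3 type B and 2 of 9 intercalated markers below and 1 of 9 above. Among all 2786 genes the shares were 21.5% below and 20.2% above. Slc4a9 stood at 860, 802, 1582 and 1174 CPM (log2 fold -0.73 ± 0.31, edgeR adjusted p = 0.652), and Hmx2 at 483, 530, 907 and 546 (-0.52 ± 0.35, edgeR adjusted p = 0.705). Insrr had a log2 fold of -0.39 ± 0.42, with mutant 2 the lowest at 150 CPM and the other 3 libraries between 286 and 335. Foxi1 (-0.20 ± 0.41), Atp6v1b1 (-0.25 ± 0.33), Tmem213 (0.22 ± 0.31) and Spink8 (0.02 ± 0.42) lay within 1.5 SE of 0. Tfcp2l1 stood at 780, 644, 1091 and 1280 CPM (-0.73 ± 0.31, edgeR adjusted p = 0.652).

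The pump list was centred on 0, with 9 of 17 log2 folds above 0, a median of 0.01 (-0.24 with cells thinned to 1000 UMIs, 0.28 without wild type 1) and none called; the catalytic subunit Atp6v1a stood at 1314, 1203, 1998 and 2166 CPM (-0.73 ± 0.30, edgeR adjusted p = 0.652) and Atp6v1f at 2007, 2807, 1760 and 1409 (0.60 ± 0.33). Among transport genes Car15 stood at 5086, 4081, 2312 and 1697 CPM (1.19 ± 0.34, edgeR adjusted p = 0.438), with the mutants above the wild types. Of the receptors and signalling genes, the kinase Wnk4, a regulator of chloride and potassium transport, had a log2 fold of -1.29 ± 0.49 (edgeR adjusted p = 0.649) and the mineralocorticoid receptor Nr3c2 -1.07 ± 0.58. Of 8 transcription factors and Notch genes 7 were below 0, among them Pax8 (-1.21 ± 0.46) and the Notch target Hes1 (-0.92 ± 0.42), and none passed.

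All 12 mitochondrially encoded mRNAs tested had log2 folds below 0, with a median of -0.72 against -0.01 for all genes, and none passed; without wild type 2 the median was -0.40. mt-Nd3 was the lowest at 1108, 823, 1630 and 4750 CPM (-1.72 ± 0.47, edgeR adjusted p = 0.412), with wild type 2 the highest; mt-Nd4l had a log2 fold of -0.85 ± 0.32 and mt-Atp8 of -1.06 ± 0.44. Nuclear subunits lay the other way, with 33 of 37 complex I genes (median 0.31) and 34 of 38 genes of complexes II to V (median 0.30) above 0, and none passed. Glycolysis genes were above 0 in 11 of 13 (median 0.34), but without mutant 2 in 6 of 14 (median -0.059) and without wild type 2 in 8 of 13 (median 0.058). With mitochondrially encoded genes left out the 2 nuclear medians were 0.32 and 0.30, and with cells thinned to 1000 UMIs they were 0.11 (26 tested) and 0.02 (36 tested). With 1 library left out they ran from 0.20 (without wild type 2) to 0.59 (without wild type 1) and from 0.14 (without mutant 2) to 0.59 (without wild type 1). In mutant 2, 1 Lsamp cell stood among 22, and the part of cell make-up in these medians was not tested.

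**Figure D5:**
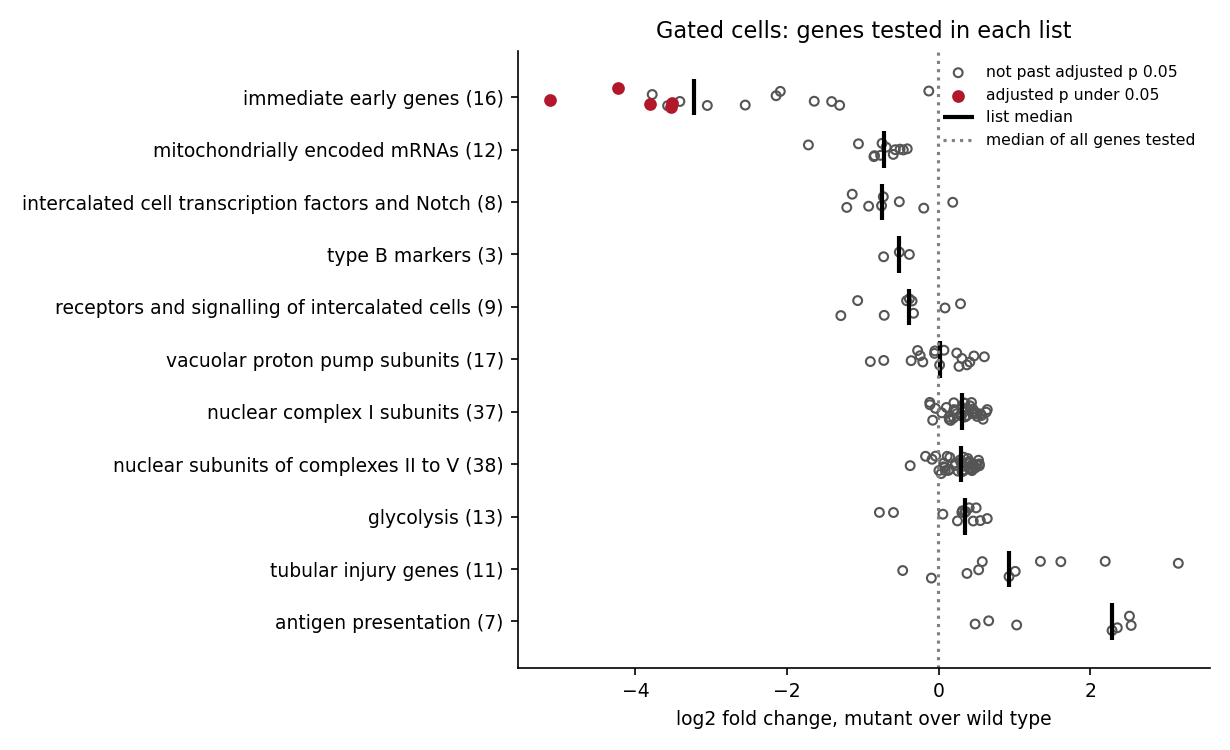
Log2 fold change of mutant over wild type for each tested gene of 11 lists, with the number tested in brackets, the list median as a black bar and the median of all 2786 genes as a dotted line; red points passed the adjusted threshold. The 5 red points are all in the immediate early list, and the mitochondrially encoded mRNAs lie left and the nuclear complex genes mostly right of the dotted line.

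No gene passed as higher in mutants. The smallest p-values among rises that separated the genotypes belonged to Cd74, Cdkn1a, S100g, Spp1 and H2-Aa, all short of the threshold. Cd74, the invariant chain of antigen presentation, stood at 258, 265, 54.6 and 35.2 CPM (2.54 ± 0.46, edgeR adjusted p = 0.0868) and was detected in 26 of 31, 17 of 22, 5 of 14 and 5 of 13 cells. H2-Aa had a log2 fold of 2.51 ± 0.67 and H2-Ab1 of 2.28 ± 0.67; all 7 antigen presentation genes tested were above 0 (median 2.28). Macrophage markers stood at 182, 195, 42.0 and 38.5 CPM summed over 10 genes. This sum includes the C1q genes, which the gate itself limited to 2 UMIs per cell together. C1qa gave 3, 6, 0 and 1 UMIs, C1qb 13, 10, 0 and 0, and C1qc 3, 0, 0 and 0. Outside the gate genes, Fcer1g gave 14, 3, 0 and 1 UMIs, Lyz2 12, 3, 3 and 4, Tyrobp 9, 3, 3 and 1, and Cd68 0, 1, 0 and 0. Csf1r, Adgre1 and Cd14 had 1 UMI each in mutant 1 and were at 0 elsewhere. Cd74 was also present in most proximal tubule barcodes, at 1365, 646, 292 and 67.8 CPM, again with the mutants above the wild types. The part of macrophage RNA or free RNA in the gated values was not tested. In the cells with no C1q UMI, Cd74 still had a log2 fold of 2.31 and the list median, over 5 genes, was 0.25; without the cells with other-type markers it was 0.81, also over 5 genes.

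Cdkn1a, an inhibitor of the cell cycle, stood at 77.3, 107, 13.6 and 5.87 CPM (3.16 ± 0.74, edgeR adjusted p = 0.297) from 24, 15, 2 and 1 UMIs. Spp1, the secreted phosphoprotein osteopontin, stood at 9200, 4675, 1937 and 2613 CPM (1.61 ± 0.40, edgeR adjusted p = 0.301), and the chaperone Clu at 918, 150, 109 and 129 (2.19 ± 0.68, edgeR adjusted p = 0.551), where mutant 1 alone was high. Of 11 injury genes 9 were above 0, with a median of 0.93, which was 0.49 with no C1q UMI and 1.89 without wild type 1. S100g, the calcium-binding protein of the connecting tubule, stood at 4413, 208, 109 and 106 CPM (4.43 ± 1.06, edgeR adjusted p = 0.297), but 66.7% of its mutant 1 UMIs came from 1 cell, and the log2 fold was -0.26 without the 27 cells that carried 10 or more UMIs of another cell type's markers. Distal convoluted and connecting tubule markers as a list stood at 11779, 1748, 2332 and 984 CPM, and 18 of the 80 cells carried 10 or more such UMIs. The defence genes Defb1 (1.46 ± 0.58) and Wfdc2 (0.56 ± 0.49), the stress genes Sars (0.82 ± 0.48), Clpp (0.77 ± 0.50) and Hspe1 (0.41 ± 0.32), and the interferon gene Ifi27 (-0.09 ± 0.44) did not pass.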

How the data were processed

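Droplet 3' libraries of 2 TrnE mutant and 2 wild-type mouse kidneys were used as the deposited UMI count matrices of 32285 genes, made by the authors with Cell Ranger (7.0.0 for mutants, 7.1.0 for wild types) on mm10, per the submitters' processing notes; the annotation and the handling of intronic reads are not given here. The 4 libraries held 42121175 to 70013861 UMIs. No deposited cell type annotation was used. UMIs were summed per library and gate and tested with edgeR 4.0.16 (TMM, filterByExpr, quasi-likelihood F test, Benjamini-Hochberg at 0.05). The tests were also run on counts simulated from the means and dispersions of these data. Of 200 changed genes among 2789 in the genotype comparison, 4.5% were recovered at 2-fold, 64.5% at 4-fold and 88.5% at 8-fold. False calls there numbered 3, 3 and 8. For the difference of genotype effects (5297 genes) 0% were recovered at 2-fold and 39% at 4-fold. Changed genes were drawn only from genes with higher mean counts, so recovery of low genes was not measured. SE is the log2 fold over the root of F. Shares were compared by exact permutation tests over libraries, and their Clopper-Pearson intervals were computed with scipy 1.17.1. Doublets were called with Scrublet in scanpy 1.11.5. The 7 gate genes stayed in library sizes and out of the tests. Counts with DESeq2 1.42.0 and other filters are alternatives.

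Members and gene lists were chosen with earlier results of these data known. Named genes were all type B, type A and intercalated markers; called genes of the genotype comparison with separated libraries and a mean of at least 50 CPM (or the 5 smallest p in a direction with fewer than 5 calls); the 12 largest called differences in each direction between the gates; and up to 3 members per role list with the smallest p and at least 20 CPM. The values of 1 gene of the intercalated list, which stays in the list's counts, are not reported here. Gene positions are from GENCODE M21, matched by identifier for 32158 of 32285 genes. The labels number the mice of each group without saying that a number is shared, and p-values measure the spread between these mice only.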

Additional observations from a re-analysis of the deposited data

Results flagged for a closer look

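The effect of genotype was tested for a difference between the gated and the Slc26a4-negative intercalated cells, and 11 genes passed in edgeR; each value is the log2 fold of mutant over wild type in the gated cells minus that in the negative cells. It was lower by this measure for Atf3 (-9.69), Fos (-8.38), Slc12a3 (-8.15), Egr1 (-7.37), Fosb (-6.62), Hspa1a (-5.51), Jun (-5.28), Junb (-4.60) and Ier2 (-3.67). Umod (3.17) and Klk1 (2.14) were the 2 higher genes. Fos stood at 370, 0, 1566 and 2646 CPM in gated cells of mutant 1, mutant 2, wild type 1 and wild type 2 and at 307, 298, 2.84 and 26.9 CPM in negative cells, and all 227 gated UMIs of wild type 1 came from 1 cell. The sodium-chloride cotransporter gene Slc12a3 had 1, 0, 61 and 6 gated UMIs, 50 of the 61 in 1 cell. Umod, of the thick ascending limb, was at 949, 717, 3454 and 4201 CPM in negative cells. Klk1, of the connecting tubule, had 2004 UMIs in gated mutant 1 cells, 921 of them in 1 cell.

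Barcodes that met every gate condition but had 50 to 80% of UMIs on mitochondrially encoded genes lie outside the comparisons. Mutant libraries held 15 of them (11 and 4) and wild-type libraries 2 (2 and 0), and 16 of the 17 carried a type B marker. Whether the difference exceeds the spread between mice was not tested.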

How the results depend on the processing

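The count of genes called between genotypes (5) was 10 with library totals, 71 with no filter on low counts, 0 at a mitochondrial share of at most 25%, 3 with mitochondrially encoded genes left out, 2 with cells thinned to 1000 UMIs and 0 without the 27 cells with other-type markers, and leaving out 1 library gave 37 to 73. With the replicate number as a replicate block it was 13; the numbers name different mice and do not pair them (r = -0.19 between deviations of same-numbered libraries), and the crossed pairing gave 6. The count between gates (284) was 882 with no filter, 113 with no library block, 72 against negative cells with Slc4a1 or Aqp6, 51 thinned, 120 without the other-type cells, and 152 to 307 with 1 library left out. The count for a difference in genotype effect (11) was 46 with no filter, 5 with no C1q UMI, 4 with an Atp6v1g3 UMI required of negative cells, and 14 to 79 with 1 library left out. The genotype difference in the gated share was -0.0888 with no C1q UMI and 0.0201 to 0.0947 with 1 library left out, and that in the pendrin-positive share -12.3 to 1.51. Fits with no C1q UMI held 16, 8, 14 and 12 gated cells in mutant 1, mutant 2, wild type 1 and wild type 2. Those without the other-type cells held 19, 18, 8 and 8, and those at a mitochondrial share of at most 25% held 27, 20, 12 and 8. Each of these settings had a library under the planned minimum of 10 cells. The causes were not tested.

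Genotype log2 folds of genes that had not passed changed sign without the other-type cells for Hmx2 (0.052), Spink8 (-0.38), Tmem213 (-0.0090) and S100g (-0.26), thinned for Spink8 (-0.14) and Atp6v1b1 (0.58), and with no filter for Bsnd (0.024) and Ifi27 (0.080). With 1 library left out they ran from -0.99 to 0.066 for Insrr, -0.82 to 0.026 for Hmx2, -0.47 to 0.93 for Spink8, -0.86 to 0.36 for Foxi1, -0.42 to 0.11 for Atp6v1b1, -0.74 to 0.22 for Atp6v0a4, -0.77 to 0.19 for Atp6v1c2, -1.51 to 0.13 for Sctr, -0.31 to 1.12 for Wfdc2 and -0.29 to 0.29 for Ifi27. Against negative cells with Slc4a1 or Aqp6, Atp6v1b1 was at -0.085, Rhcg at -0.48 and Tfcp2l1 at -0.11. Apart from these changes of sign, 649 gene values between genotypes kept their direction and their side of the threshold over all alternatives. A further 15 fell short of the threshold that they had passed, and 29 passed it that had not. Between gates these counts were 546, 31 and 2. For the difference of genotype effects 122 were kept and 21 fell short. The alternatives with other-type cells left out, with thinning in the genotype comparison, with Atp6v1g3 required and with crossed pairing were chosen after seeing the data. With 13 to 31 cells a library, low genes rest on few UMIs.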
